A study of Mus musculus with 6 samples.

Results

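The 10 genes described here make and load MHC class I molecules in mouse dorsal root ganglia, which hold the cell bodies of the sensory neurons that serve skin, muscle and viscera. They are 7 heavy chain genes (H2-K1, H2-D1, H2-Q4, H2-Q6, H2-Q7, H2-T22 and H2-T23), the light chain gene B2m, and the transporter genes Tap1 and Tap2. Members were taken by Ensembl identifier and symbol, and all 10 were found among the 54532 gene rows of the table. The set was selected on gene names, with the normalised read counts of the same 6 libraries and their group differences already known, so its differences between groups are given as a description. Knockout mice lacked Hdac2, a histone deacetylase, conditionally (Hdac2 cKO, 3 libraries): they carried Adv-Cre, Cre recombinase driven by the Advillin gene of primary sensory neurons, together with floxed Hdac2. Its littermate controls had floxed Hdac2 without Cre (called WT, 3 libraries). All libraries came from whole ganglia of C57BL/6 mice aged 8 weeks, and no group had Cre without the floxed gene. Values are read counts divided by 1 size factor per library (normalised read counts). In bulk tissue, fewer cells of a type and less RNA per cell cannot be told apart.

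MHC class I molecules hold short peptides at the cell surface, where CD8 T cells and natural killer cells read them. A heavy chain folds with β2-microglobulin in the endoplasmic reticulum, and the TAP1 and TAP2 transporter brings in peptides cut by the proteasome. Interferons raise transcription of these genes in most cell types, through the activator NLRC5 and interferon regulatory factors. Neurons are known for low class I levels at rest, and glia, endothelium and immune cells in ganglia also carry class I.

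Libraries totalled from 18943595 to 42070531 reads. Hdac2 stood at 499, 372 and 535 normalised read counts in Hdac2 cKO 1, 2 and 3, against 2816, 1715 and 3498 in WT 1, 2 and 3, in the direction of the labels. Its log2 fold change was -2.47 (SE 0.31), with an adjusted p of 0.927 in limma and 7.25e-09 in DESeq2. WT 3 stood apart: it held the lowest value for 40.4% of the 18410 genes tested and the highest for 30.5%. Normalised read counts of Y-linked genes summed to 3993 in Hdac2 cKO 2, to 3649 in WT 2 and 5698 in WT 3, and to at most 7.06 in the other 3 libraries; with sex as a term, the median log2 fold change of the 10 genes was 0.48. Defining markers of sensory neurons were detected in every library, 16 of 16, with summed values of 386170 to 481450 in Hdac2 cKO and 372410 to 547080 in WT.

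The promoters are shown first, because most heavy chain genes carry the same letters there, those of known control elements. RefSeq promoters (250 bases before to 50 after the annotated start, GRCm38.p6) were listed for 9 of the 10 genes, all but Tap2; of the 2 starts listed for H2-K1 the first was used. Both strands were searched for the κB-type core GGGATTCCC, for the palindrome made of that core with 1 more G before it and 1 more C after it, and for 2 forms of the interferon-stimulated response element, a short form AAGTGAAA and a spaced form of 2 GAAA blocks with any 2 bases between them. In the windows below, written 5′ to 3′ on each gene's strand, capitals mark matches to any of these.
H2-K1 (chr17:34000412-34000471, minus strand): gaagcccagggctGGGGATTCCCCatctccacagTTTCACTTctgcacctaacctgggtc
H2-D1 (chr17:35262910-35262969, plus strand): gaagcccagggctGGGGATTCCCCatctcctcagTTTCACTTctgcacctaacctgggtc
H2-Q6 (chr17:35424664-35424723, plus strand): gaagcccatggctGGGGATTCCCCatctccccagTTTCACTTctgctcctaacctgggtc
H2-Q7 (chr17:35439008-35439067, plus strand): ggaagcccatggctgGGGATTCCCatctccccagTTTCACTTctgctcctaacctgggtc
H2-Q4 (chr17:35379430-35379489, plus strand): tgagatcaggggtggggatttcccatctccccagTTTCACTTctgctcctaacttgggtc
H2-T22 (chr17:36042908-36042967, minus strand): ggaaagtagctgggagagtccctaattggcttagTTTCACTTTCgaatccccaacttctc
H2-T23 (chr17:36032800-36032859, minus strand): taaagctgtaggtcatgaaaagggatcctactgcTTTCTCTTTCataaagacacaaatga
B2m (chr2:122147514-122147573, plus strand): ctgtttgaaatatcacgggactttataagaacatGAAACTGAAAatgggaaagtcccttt

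The short form AAGTGAAA was found in 6 of the 9 promoters, against 1.6% of 32851 promoters in all. The palindrome was found in H2-K1, H2-D1 and H2-Q6, and in 0.0304% of all promoters, and its core, which lies inside it, also in H2-Q7 (0.353% of all). The spaced form was found in B2m, H2-T23 and H2-T22 (3.44% of all), and in H2-T22 it overlaps the short form. Tap1 held none of these letters in its window. The letters searched were those of known control elements. Only these exact letters were counted, so a promoter without a match may still hold a variant of an element. The windows of H2-K1, H2-D1 and the 3 Q genes are close to one another, so their matches are not independent. A match describes the letters only and shows no binding.

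H2-K1 and H2-D1 encode the classical heavy chains that present peptides to CD8 T cells. H2-K1 (ENSMUSG00000061232, chromosome 17, 33996017 to 34000347, GRCm38, the assembly of mm10) stood at 4115, 2510 and 1222 normalised read counts in Hdac2 cKO 1, 2 and 3, against 2349, 1496 and 886 in WT 1, 2 and 3. Each knockout library was above the control library of the same number, but the groups overlapped. Means were 2616 ± 1450 in Hdac2 cKO and 1577 ± 735 in WT (SD, n = 3 each). In limma on log2 (value + 1) the log2 fold change was 0.67 (SE 0.51), with a 95% confidence interval from -0.53 to 1.87. H2-D1 (ENSMUSG00000073411, chromosome 17, 35262730 to 35267499) was the steadiest of the 10 genes. It stood at 13883, 9884 and 13067 in Hdac2 cKO 1, 2 and 3, against 18380, 14159 and 9467 in WT 1, 2 and 3. Its highest library was 1.94 times its lowest, and the groups overlapped, with a log2 fold change of -0.15 (SE 0.29).

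The non-classical genes H2-T22 and H2-T23 lie side by side and showed the widest differences. H2-T23 encodes Qa-1, which presents leader peptides of other class I chains to the CD94/NKG2 receptors of natural killer cells, and the H2-T22 product is a ligand of some γδ T cell receptors. H2-T22 (ENSMUSG00000056116, chromosome 17, 36037128 to 36042747) stood at 715, 783 and 81.8 normalised read counts in Hdac2 cKO 1, 2 and 3, against 127, 93.8 and 28.6 in WT 1, 2 and 3. Hdac2 cKO 1 and 2 thus stood far above all other libraries, while Hdac2 cKO 3 lay below WT 1 and WT 2. H2-T22 averaged 527 ± 387 in Hdac2 cKO and 83.2 ± 50.1 in WT (SD, n = 3 each). The log2 fold change was 2.34 (SE 0.96), with a 95% confidence interval from 0.10 to 4.58, and missed the threshold once adjusted over the whole table (limma adjusted p = 0.927).

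H2-T22 passed under 2 other settings of limma. Without both libraries numbered 3 the log2 fold change was 2.77 (adjusted p = 0.0163), and with array weights (2.42, 3.65 and 0.402 for Hdac2 cKO 1, 2 and 3, against 0.670, 4.17 and 0.101 for WT 1, 2 and 3) it was 2.77 (adjusted p = 0.0343). Of all 18410 genes tested, 5 were called without both libraries numbered 3 and 567 with array weights. Both settings left out or weighted down Hdac2 cKO 3, the knockout library with low H2-T22. Over all 19 alternatives its limma, edgeR, DESeq2 and voom adjusted p ranged from 0.0163 to 1.0. H2-T23 (ENSMUSG00000067212, chromosome 17, 36029773 to 36032855) stood at 676, 326 and 57.4 in Hdac2 cKO 1, 2 and 3, against 136, 113 and 21.5 in WT 1, 2 and 3. Its order over the libraries was close to that of H2-T22, with a log2 fold change of 1.73 (SE 1.03), which was 0.97 without Hdac2 cKO 1 and 0.91 without WT 3.

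The Q region genes H2-Q4, H2-Q6 and H2-Q7, of which H2-Q6 and H2-Q7 belong to the Qa-2 family, lie between H2-D1 and the T region, and library 1 was the highest in both groups. H2-Q4 (ENSMUSG00000035929, chromosome 17, 35379617 to 35385290) stood at 912, 349 and 444 normalised read counts in Hdac2 cKO 1, 2 and 3, against 734, 319 and 443 in WT 1, 2 and 3. H2-Q6 (ENSMUSG00000073409, chromosome 17, 35424850 to 35430055) stood at 377, 135 and 83.2 in Hdac2 cKO 1, 2 and 3, against 157, 50.6 and 115.5 in WT 1, 2 and 3. H2-Q7 (ENSMUSG00000060550, chromosome 17, 35439155 to 35443773) stood at 303, 94.4 and 43.4 in Hdac2 cKO 1, 2 and 3, against 167, 35.7 and 31.7 in WT 1, 2 and 3. All 3 groups of values overlapped. Log2 fold changes were 0.15 (SE 0.45) for H2-Q4, 0.73 (SE 0.66) for H2-Q6 and 0.89 (SE 0.89) for H2-Q7. Without Hdac2 cKO 1, and with WT 1 kept, they were -0.25, 0.12 and 0.15. H2-Q4 also turned negative without WT 2 and with a sex term. Between libraries of the same number, the log2 differences of H2-Q7 were 0.86, 1.38 and 0.44 for numbers 1, 2 and 3, and those of H2-Q6 1.26, 1.39 and -0.47, so numbers 2 and 3 alone averaged 0.91 for H2-Q7 and 0.46 for H2-Q6.

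B2m (ENSMUSG00000060802, chromosome 2, 122147686 to 122153083), whose product every class I chain needs, stood at 11785, 7854 and 3986 normalised read counts in Hdac2 cKO 1, 2 and 3, against 11280, 5334 and 509 in WT 1, 2 and 3. Means were 7875 ± 3899 in Hdac2 cKO and 5708 ± 5395 in WT (SD, n = 3 each). The low value of WT 3 decided the difference: the log2 fold change was 1.20 (SE 1.06) over all libraries and -0.11 without WT 3. Of the 10 genes, B2m was the only one whose longest coding transcript shared no 50-base window with another gene.

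Tap1 (ENSMUSG00000037321, chromosome 17, 34187553 to 34197225) and Tap2 (ENSMUSG00000024339, chromosome 17, 34203527 to 34216321) are neighbours whose products form one transporter, yet their libraries ranked differently. Tap1 stood at 951, 315 and 420 normalised read counts in Hdac2 cKO 1, 2 and 3, against 461, 234 and 388 in WT 1, 2 and 3. Tap2 stood at 642, 381 and 648 in Hdac2 cKO 1, 2 and 3, against 340, 551 and 1405 in WT 1, 2 and 3. Tap1 was highest in Hdac2 cKO 1 and Tap2 in WT 3. Log2 fold changes were 0.53 (SE 0.46) for Tap1 and -0.24 (SE 0.52) for Tap2. Without Hdac2 cKO 1 the value for Tap1 was 0.07, and without WT 3 that for Tap2 was 0.32.

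**Figure D1:**
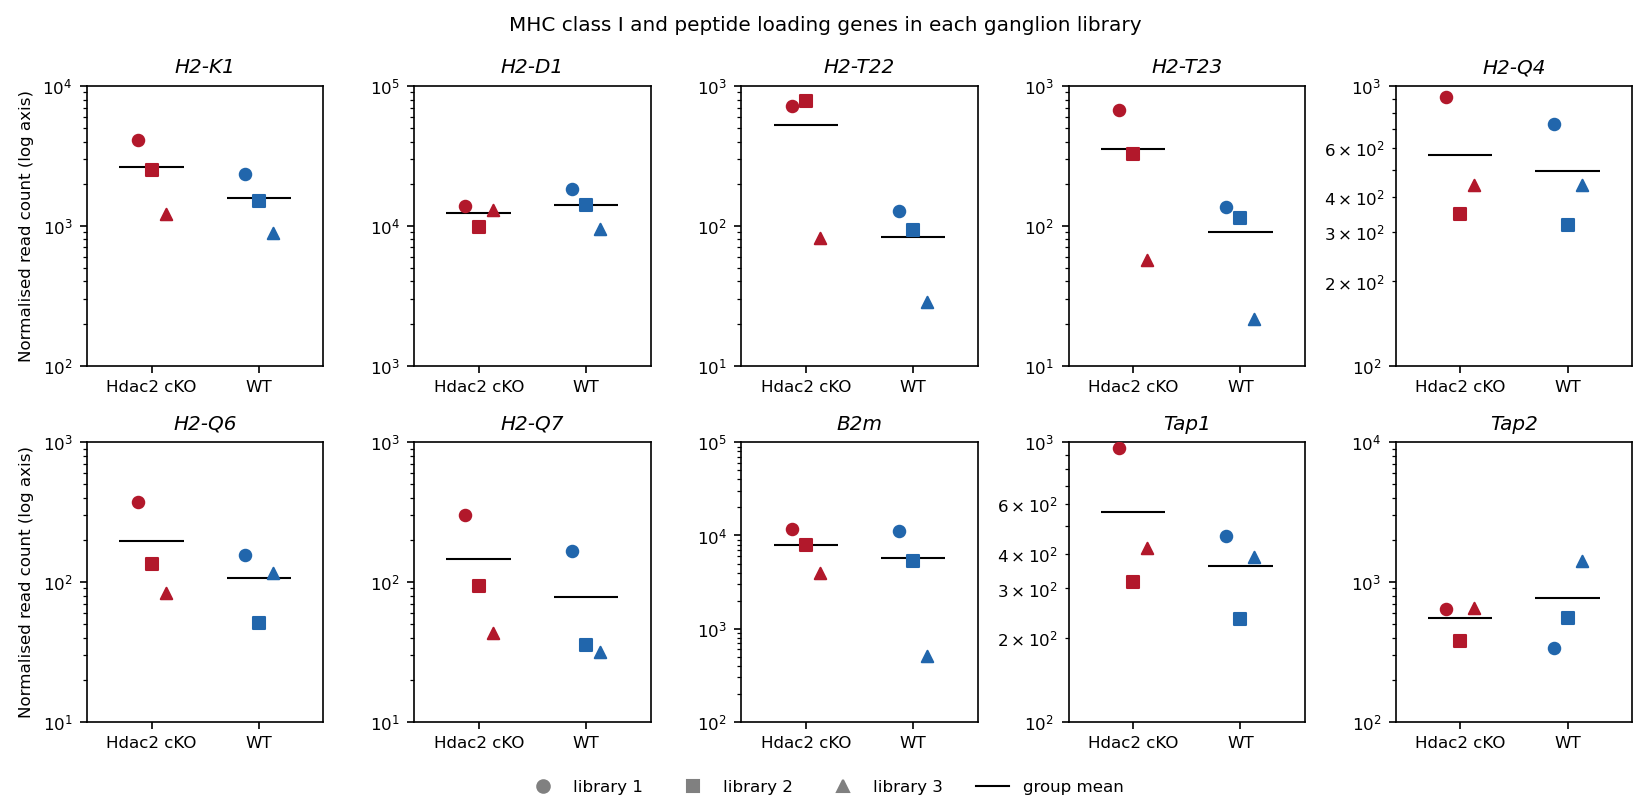
Normalised read count (log axis) of each gene in each library, with Hdac2 cKO left and WT right; marker shape gives the library number and lines the group means. H2-T22 and H2-T23 are highest in Hdac2 cKO 1 and 2, B2m is lowest in WT 3 at 509, and the groups overlap for all 10 genes.

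Of the 10 genes, 8 had a positive log2 fold change and 2 a negative one, with a median of 0.70 against 0.06 over all genes tested, of which 55.3% were positive. None was called by limma at an adjusted p of 0.05 (adjusted p from 0.927 to 0.955), against 0% of all 18410 genes; 1 gene, H2-T22, had an unadjusted p under 0.05. DESeq2 called none of the 10 and edgeR none, with 2 and 1 of the 10 at an unadjusted p under 0.05. Over all genes, the unadjusted p was under 0.05 for 341 of 18410 in limma and 401 of 18410 in edgeR. In DESeq2 it was under 0.05 for 995 of the 37205 genes with any reads. DESeq2 gave an adjusted p to 18296 of the 18410 genes and called 0.12% of them, and edgeR called 0 genes in all. The groups did not overlap for 0 of the 10, against 8.54% of all genes. Between libraries of the same number, 7 of the 10 (all but H2-D1, H2-Q6 and Tap2) were higher in Hdac2 cKO in all 3 pairs, against 18.2% of all genes. For H2-Q4 the third difference was 0.005 on the log2 scale. The labels do not state that libraries of the same number belong together. The median was 0.14 without Hdac2 cKO 1, 0.40 without WT 3 and 0.41 without WT 2, and 1.17 without Hdac2 cKO 3.

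**Figure D2:**
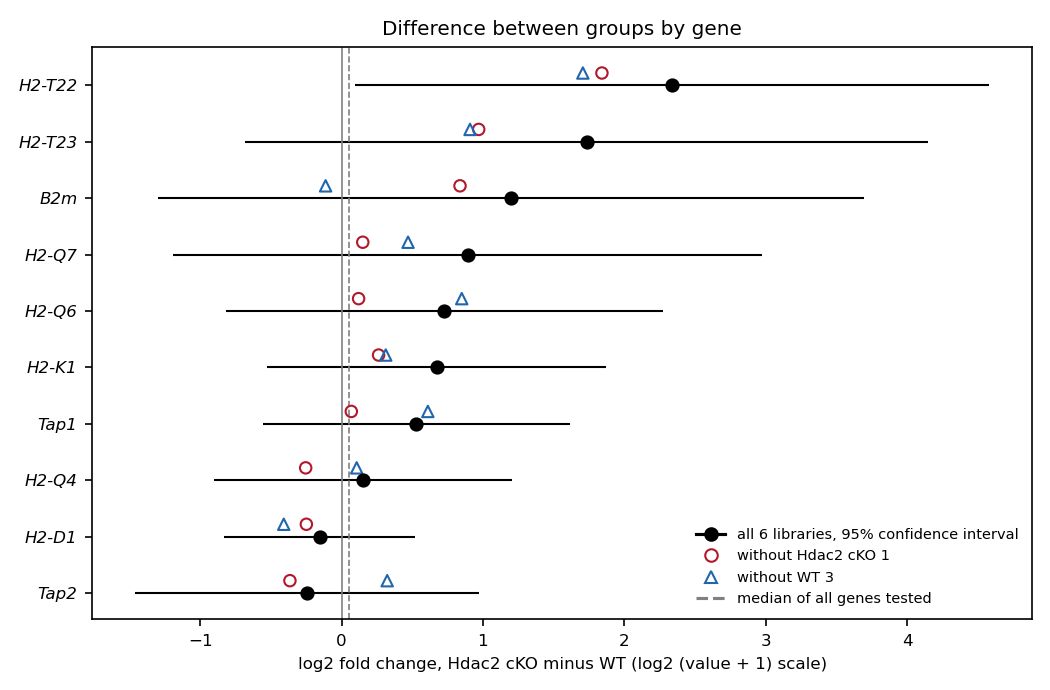
Log2 fold change of each gene, Hdac2 cKO minus WT (log2 (value + 1) scale), with its 95% confidence interval; open markers leave out 1 library and the dashed line is the median of all genes tested, 0.06. Leaving out Hdac2 cKO 1 brings H2-Q6, H2-Q7 and Tap1 close to 0, and leaving out WT 3 brings B2m to -0.11.

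Spread between libraries of 1 group was thus large, and followed a pattern across genes. Hdac2 cKO 1 held the highest value for 7 of the 10 genes, against 14.1% of all genes tested, and WT 3 the lowest for 6, against 40.4%. Relative to the gene means, the median of the 10 was 1.25, 0.18 and -0.42 on the log2 scale in Hdac2 cKO 1, 2 and 3, against 0.33, -0.47 and -0.75 in WT 1, 2 and 3. Over the 6 libraries, which share depth and library differences, pairwise Pearson correlations of the members ran from -0.88 to 0.97 with a median of 0.52. H2-K1, H2-T23 and H2-T22 were alike, at 0.97 for H2-K1 and H2-T23 and 0.96 for H2-T22 and H2-T23. H2-Q4, H2-Q6 and Tap1 were alike too, at 0.92 for H2-Q4 and Tap1 and 0.91 for H2-Q6 and Tap1. Tap2 went the other way from B2m, at -0.88.

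The genes whose log2 values were most like the mean of the standardised members, among 13022 others with a mean of at least 100, were Igtp (Pearson correlation 0.990 over 6 libraries), Gbp2 (0.985), Irgm2 (0.981), Nlrc5 (0.978) and Kat6b (0.976). Over 6 libraries, correlations this high can arise between unrelated profiles when 13022 genes are searched. Igtp and Irgm2 encode interferon-inducible GTPases of the IRG family and Gbp2 a guanylate-binding protein. Igtp stood at 1761, 276 and 211 normalised read counts in Hdac2 cKO 1, 2 and 3, against 457, 174 and 144 in WT 1, 2 and 3. Nlrc5 stood at 618, 161 and 104 in Hdac2 cKO 1, 2 and 3, against 226, 61.0 and 81.8 in WT 1, 2 and 3. In both genes Hdac2 cKO 1 was highest and WT 1 second. Kat6b, a histone acetyltransferase, varied little, from 647 to 913.

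The interferon response list had 29 of 36 genes with a positive log2 fold change, against 55.3% of all genes tested. The median was 0.26, and 0 were called. Hdac2 cKO 1 held the highest value for 24 of the 36, against 14.1% of all genes tested. The largest differences on the list were Gbp2 at 1.23 (SE 1.01), Gbp7 at 1.16 (SE 0.59) and Nlrc5 at 1.06 (SE 0.76). Gbp2 stood at 1946, 384 and 189 in Hdac2 cKO 1, 2 and 3, against 682, 194 and 81.8 in WT 1, 2 and 3. The interferon list also holds Tap1, Igtp, Psmb8 and Psmb9, and shares Nlrc5 with the regulators below. Groups did not overlap for Stat2, at 1936 ± 279 in Hdac2 cKO and 1361 ± 245 in WT, and Irf9, at 644 ± 63.6 in Hdac2 cKO and 434 ± 168 in WT (SD, n = 3 each). These are partners in the factor that type I interferon activates, and were named after their values were seen; groups did not overlap in that direction for 4.63% of all genes. Ifng and Ifnb1, the interferon genes listed, were at 0 in some libraries and at most 4.04 and 12.3 normalised read counts.

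Markers of blood and immune cells also varied between libraries, and their part in the class I differences was not tested. Macrophage markers, 15 of 15 tested, summed to 11461, 13085 and 3808 normalised read counts in Hdac2 cKO 1, 2 and 3, against 13130, 5681 and 3390 in WT 1, 2 and 3. WT 3 was lowest for 10 of the 15, with Cd68 at 0, and highest for 1, Aif1, at 520. T, B and NK cell markers, 12 of 14 tested, summed to between 124 and 788 in Hdac2 cKO and between 180 and 764 in WT, and 8 of the 14, such as Cd3d and Cd8a, were at 0 in at least 1 library. Granulocyte markers summed to 13860, 22328 and 196 in Hdac2 cKO 1, 2 and 3, against 24463, 1318 and 481 in WT 1, 2 and 3, and erythroid markers to 51225, 77527 and 1340 in Hdac2 cKO 1, 2 and 3, against 53291, 7113 and 2758 in WT 1, 2 and 3. These blood lists were high in Hdac2 cKO 1 and 2 and in WT 1. The same 3 libraries were the 3 highest for 6 of the 10 class I genes (H2-K1, H2-T22, H2-T23, H2-Q6, H2-Q7 and B2m), against 16.5% of all genes tested. Endothelial markers, 10 of 10 tested, varied less, from 7940 to 8141 in Hdac2 cKO and from 7609 to 9702 in WT.

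**Figure D3:**
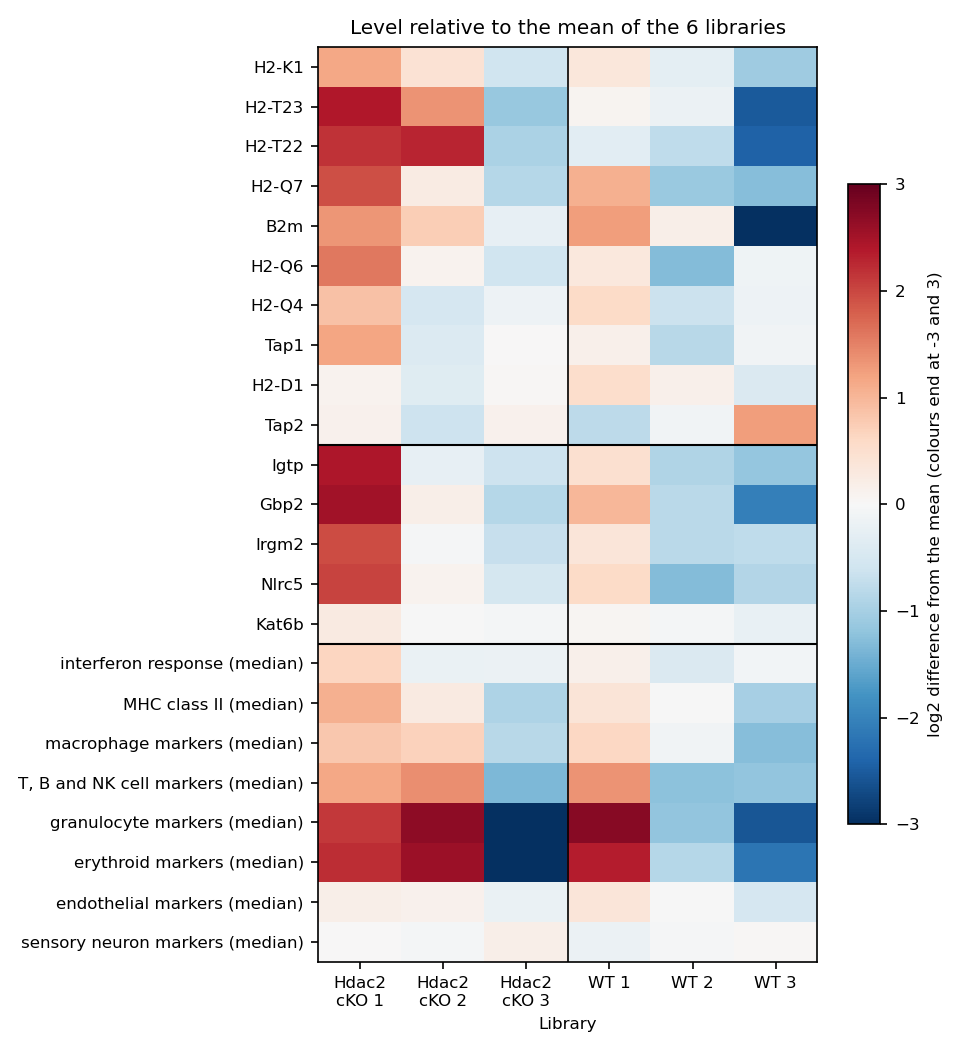
Log2 difference of each library from the mean of the 6 libraries, with the 10 class I genes on top, the 5 genes most like their mean below them, and the medians of gene lists at the bottom; Hdac2 cKO libraries are left of the line. Hdac2 cKO 1 is the reddest column among the class I and interferon genes, while granulocyte and erythroid markers are high in Hdac2 cKO 1, Hdac2 cKO 2 and WT 1.

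Levels between genes are compared per length, on the TPM scale computed from the deposited values and the exon length of each gene. That length joins all annotated exons, 2938 bases for H2-K1 and 3781 for Tap2. Their longest coding transcripts have 1619 and 3442 bases. Levels, shares and ratios between genes depend on this choice of length. B2m averaged 744 TPM in Hdac2 cKO and 642 TPM in WT, H2-D1 379 TPM in Hdac2 cKO and 512 TPM in WT, and H2-K1 72.3 TPM in Hdac2 cKO and 50.6 TPM in WT. The other 7 genes lay between 0.526 and 27.8 TPM. B2m and H2-D1 overlapped between libraries and are not ordered beyond their spread, whereas H2-D1 was above H2-K1 in every library. With this length H2-K1 overlapped the top of the lower 7, since Tap2 stood at 26.3 TPM in WT 3, against 21.4 TPM for H2-K1 there. The order of these genes in WT 3 is not fixed, as it can change with the length used.

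H2-D1 made up 68.8, 73.0 and 88.2% of the summed heavy chain TPM in Hdac2 cKO 1, 2 and 3, against 84.8, 88.2 and 87.0% in WT 1, 2 and 3. The ratio of H2-D1 to H2-K1 was 3.84, 4.49 and 12.2 in Hdac2 cKO 1, 2 and 3, against 8.91, 10.8 and 12.2 in WT 1, 2 and 3. H2-T22 and H2-T23 together made up 5.66, 6.52 and 0.762% in Hdac2 cKO 1, 2 and 3, against 1.00, 1.07 and 0.375% in WT 1, 2 and 3. The balance between chains thus differed in Hdac2 cKO 1 and 2 from the other 4 libraries, and Hdac2 cKO 3 lay close to or among the WT values. B2m per summed heavy chain was 1.75, 1.74 and 0.806 in Hdac2 cKO 1, 2 and 3, against 1.56, 0.997 and 0.140 in WT 1, 2 and 3, with WT 3 far below the rest.

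**Figure D4:**
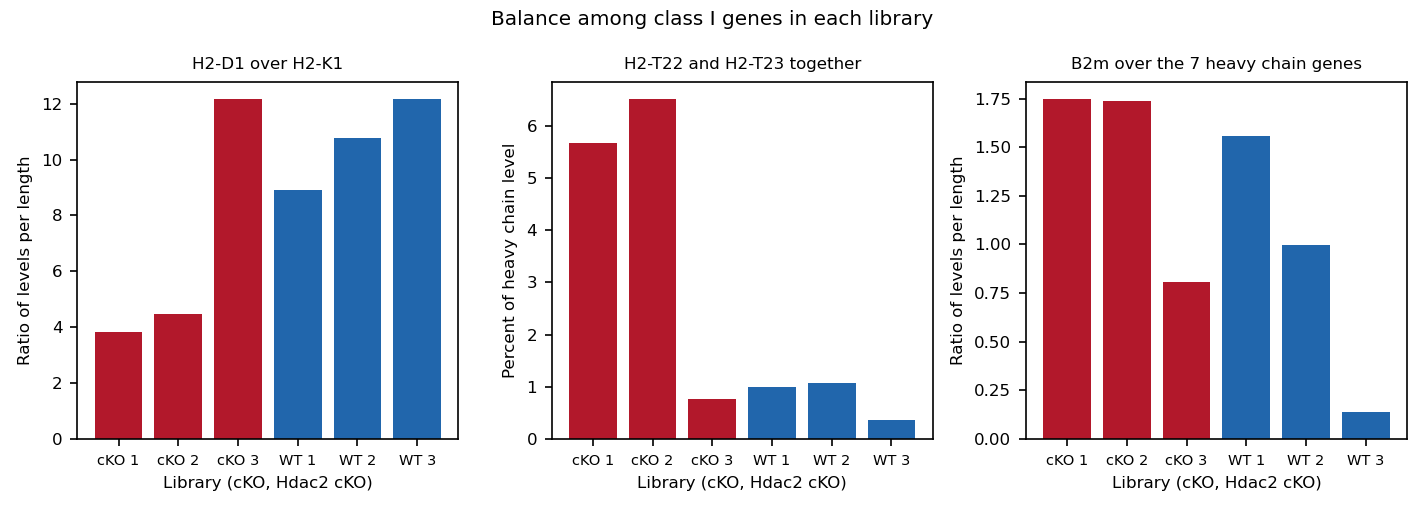
Ratio of H2-D1 to H2-K1, the share of H2-T22 and H2-T23 in the summed heavy chain level, and the ratio of B2m to that sum, from levels per length in each library (Hdac2 cKO left, WT right). The share of the T genes is 5.66 and 6.52% in Hdac2 cKO 1 and 2 and at most 1.07% elsewhere.

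Read sharing between gene copies limits how far some of these counts can be assigned to 1 gene. Of the 50-base windows of each gene's longest coding transcript in GENCODE M21, 44.7% were shared with another gene for H2-T22, 39.2% for H2-Q4, 35.0% for H2-Q6, 34.9% for H2-Q7 and 29.8% for H2-T23. The share was 8.79% for H2-K1 and 14.3% for H2-D1, and 6.47% for Tap1 and 12.6% for Tap2, mostly shared with Psmb9 and Gm15821 beside them. H2-T22 shared most, 37.9%, with H2-T10, its near copy, which was chosen for this reason. It also shared 5.84% with Gm11127 and 4.79% each with Gm7030 and H2-T23. H2-T10 stood at 189, 138 and 240 normalised read counts in Hdac2 cKO 1, 2 and 3, against 246, 223 and 247 in WT 1, 2 and 3. H2-T22 and H2-T10 summed to 904, 921 and 322 in Hdac2 cKO 1, 2 and 3, against 373, 317 and 276 in WT 1, 2 and 3. If reads matching both genes were left out of the counts, the sum holds none of them, so the part of read sharing was not tested. The sources used here do not say how reads matching several genes were counted.

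Neighbouring MHC genes were read for the same pattern. Of 93 other tested genes between the first and the last chromosome 17 member (33996017 to 36042747), 8 had Hdac2 cKO 1 and 2 as their highest libraries, or 8.6%, against 3 of the 10 class I genes (H2-K1, H2-T22 and H2-T23) and 10.4% of all genes tested. H2-Eb1, a class II β chain, stood at 1359, 819 and 35.0 normalised read counts in Hdac2 cKO 1, 2 and 3, against 116, 92.3 and 58.3 in WT 1, 2 and 3. H2-DMb1, which helps load class II peptides, stood at 303, 311 and 54.6 in Hdac2 cKO 1, 2 and 3, against 116, 90.8 and 22.5 in WT 1, 2 and 3. H2-T24, near H2-T23, stood at 163, 120 and 42.7 in Hdac2 cKO 1, 2 and 3, against 78.5, 40.2 and 25.6 in WT 1, 2 and 3. These 3 of the 8 were named by rule, and the class II chain genes H2-Aa and H2-Ab1, named after their values were seen, ranked otherwise. H2-Aa stood at 2250.0, 1298 and 571 in Hdac2 cKO 1, 2 and 3, against 1751, 1254 and 437 in WT 1, 2 and 3. H2-Ab1 stood at 2203, 1141 and 541 in Hdac2 cKO 1, 2 and 3, against 1932, 1146 and 545 in WT 1, 2 and 3. WT 1 was second highest for both. Across the 93 the median log2 fold change was -0.10. Of the 7 MHC class II genes, 5 had a positive and 2 a negative log2 fold change, with a median of 0.27, and 0 were called. Ciita, the activator of class II genes, had a value of 0.89 (SE 0.52). Without both libraries numbered 3, limma called H2-Eb1 (adjusted p = 0.0163).

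Of 19 other class I and class I-like genes found in the table, 12 were tested, of which 7 had a positive and 5 a negative log2 fold change; the median was 0.09 and 0 were called. H2-K2, near H2-K1, stood at 76.8, 56.0 and 8.39 normalised read counts in Hdac2 cKO 1, 2 and 3, against 11.5, 4.47 and 0 in WT 1, 2 and 3. H2-Q10, a gene known from liver, stood at 32.3, 23.6 and 9.09 in Hdac2 cKO 1, 2 and 3, against 15.9, 81.9 and 0 in WT 1, 2 and 3. H2-M3, which presents N-formylated peptides, was the only one of the 12 without overlap, at 254 ± 18.8 in Hdac2 cKO and 170 ± 8.77 in WT (SD, n = 3 each; limma adjusted p = 0.927), and was named after its values were seen. Groups did not overlap in that direction for 4.63% of all genes.

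Other steps of the loading pathway were read from gene lists. Of 9 chaperones and trimming enzymes of the loading complex and the endoplasmic reticulum, 8 had a positive log2 fold change, with a median of 0.22 and 0 called. Tapbp, tapasin, which bridges TAP and the heavy chain, had one of -0.43 (SE 0.26), Uggt1, a glucosyltransferase that checks folding, 0.30 (SE 0.19), and Hspa5, the chaperone BiP, 0.27 (SE 0.30). Uggt1 was the only one of the 9 without overlap, at 2575 ± 31.1 in Hdac2 cKO and 2105 ± 291 in WT (SD, n = 3 each), against 4.63% of all genes in that direction. Of 5 immunoproteasome genes 2 had a positive and 3 a negative value, with a median of -0.11. Psmb9, beside Tap1, stood at 565, 188 and 192 in Hdac2 cKO 1, 2 and 3, against 313, 226 and 195 in WT 1, 2 and 3, and like Tap1 was highest in Hdac2 cKO 1. Psmb10 had a value of -0.48 (SE 0.43), with 3736 in WT 3 against at most 1412 in any other library, and Psme2, a proteasome activator subunit, one of -0.15 (SE 0.20). The 6 constitutive proteasome genes had a median of -0.14, and Psmb5, Psmb6 and Psmb7 values of -0.74, -0.57 and 0.41, in each of which WT 3 was the extreme library.

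Of 13 transcription regulators of class I, 9 had a positive and 4 a negative log2 fold change, with a median of 0.15 and 0 called. Nlrc5 is given above, Irf2 had a value of 0.59 (SE 0.56) and Rfxap, a subunit of the RFX factor, -0.37 (SE 0.27). Rela and Rfxank were the 2 without overlap, both lower in Hdac2 cKO, against 3.91% of all genes in that direction, and were named after their values were seen. Rela, a subunit of NF-κB, stood at 999 ± 70.4 in Hdac2 cKO and 1215 ± 30.6 in WT, and Rfxank at 251 ± 11.5 in Hdac2 cKO and 325 ± 57.3 in WT (SD, n = 3 each). Among interferon receptors and kinases, 5 of 7 tested were positive, with Jak1 at 0.59 (SE 0.33), Ifngr1 at 0.54 (SE 0.49) and Tyk2 at 0.47 (SE 0.29), and WT 3 was lowest for each. Receptors that read class I were near the limit of detection: 8 of 15 were tested and 10 were at 0 in at least 1 library. Cd8a stood at 25.3, 37.3 and 4.90 normalised read counts in Hdac2 cKO 1, 2 and 3, against 15.9, 0 and 0 in WT 1, 2 and 3. Klrk1, which encodes NKG2D, stood at 18.2, 7.86 and 13.3 in Hdac2 cKO 1, 2 and 3, against 25.6, 0 and 0 in WT 1, 2 and 3. Klra2, of the Ly49 family, stood at 32.3, 0.983 and 1.40 in Hdac2 cKO 1, 2 and 3, against 16.8, 2.98 and 22.5 in WT 1, 2 and 3.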

How the data were processed

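Bulk RNA-seq of 6 dorsal root ganglion libraries was read from 1 table. The submitters' processing notes name HISAT2, SAMtools, featureCounts, DESeq2 and mm10, and the sources used here give no versions, strand setting or counting options. The deposited signal values were gene read counts that the authors had divided by 1 size factor per library. With the smallest nonzero value of a column taken as 1 read, 100% of values were whole within 0.01. Of 54532 identifiers, 54495 matched GENCODE M21 (GRCm38), used for symbols, coordinates and exon lengths. The number of libraries limits precision, and the part of read depth was not tested. Nothing says whether a library is 1 mouse or a pool, so p-values cover only the spread between libraries, which may be technical.

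The main test was limma 3.58.1 (R 4.3.3) on log2 (value + 1), with trended, robust variance estimates, for the 18410 genes that reached a value of 10 in 3 or more libraries, with two-sided p adjusted by Benjamini-Hochberg over all of them and a threshold of 0.05. The added 1 shrinks the fold changes of weakly expressed genes. Alternatives were edgeR 4.0.16 and DESeq2 1.42.0 on recovered reads, limma-voom, TMM and total scaling, pseudocounts of 0.5 and 5, 2 filters, array weights, a replicate block, leaving out each library and a term for sex, set by Y-linked genes; leaving out both libraries numbered 3 was chosen after seeing the data. Scripts were tested on simulated data. Members and lists were chosen with earlier results of these data known. All members, up to 3 genes per list with the largest absolute fold changes and the 5 genes most like the members were named by rule; others are marked. Cell type lists of blood and immune cells, endothelium and sensory neurons are given above. Lists of myelinating Schwann cells, satellite glia and skeletal muscle had medians of -0.86, -0.18 and -4.05. Groups did not overlap, lower in Hdac2 cKO, for 5 of 8 Schwann, 0 of 8 satellite glia and 9 of 10 muscle genes, against 3.91% of all genes. DESeq2 called 1, 0 and 2 of them, against 0.12% of all genes. Their part in the class I differences was not tested.

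Deviations of libraries from their group means correlated by 0.40, 0.15 and 0.42 between libraries numbered 1, 2 and 3. Hdac2 cKO 2 and WT 1 correlated by 0.34 across numbers, above the 0.15 of Hdac2 cKO 2 with WT 2. The labels state no pairing, and the main test used none. Libraries were paired by number only in the replicate block and in the differences between libraries of the same number. Those numbered 3 differed in Y-linked genes, which summed to 0 in Hdac2 cKO 3 and 5698 in WT 3. No replicates agreed within sampling noise (chi-square per gene at least 17.4). Among genes with 1 to 20 reads, 42.4% of counts were even in WT 2 and 60.2 to 64.4% in the others. The effect of this on the values is not known.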

Additional observations from a re-analysis of the deposited data

How the results depend on the processing

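Over 19 alternatives the median log2 fold change of the 10 genes stayed positive, from 0.14 to 1.17 when 1 library was left out. Every change of a single gene was smaller than its pooled SD within groups. With 3 libraries a group, leaving out 1 library cannot shift a difference by more than that SD. For those settings the comparison therefore shows no stability. Signs changed for B2m (without WT 3), H2-D1 (without WT 1), H2-Q4 (without Hdac2 cKO 1 or WT 2, and with a sex term) and Tap2 (without Hdac2 cKO 2, WT 3 or both libraries numbered 3). Genes called over the whole table numbered 0 by limma in the main test and 22 by DESeq2. Limma called 567 of 18410 genes with array weights and 5 of 18410 without both libraries numbered 3. Of the 10 genes 1 was called with array weights and 1 without both libraries numbered 3, H2-T22 in each. Of the genes on the pathway lists 4 were called with array weights (Ddx58, Cd8a, H2-K2 and Ifit1) and 1 without both libraries numbered 3 (H2-Eb1). Hdac2 was called by DESeq2 (log2 fold change -2.51) and with array weights (-2.13), and ranged from -2.76 to -2.24 when 1 library was left out, with 0 genes called each time. With the replicate block the median was 0.70 and 0 of the 10 genes and 0 genes in all were called; the block changed no call. The causes were not tested. With 3 libraries a group and groups this wide, a difference of the size seen for H2-K1 or B2m was not detectable, and its absence is not shown.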
